A study of Homo sapiens with 6 samples.

Results

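The 32 genes described here encode VCP (also called p97) and 31 proteins grouped here as its cofactors, adaptors or modifiers, among the 57820 annotated genes of the deposited table. They were chosen by name from background knowledge of the VCP system, with earlier results of these data known. The link of each protein to VCP was not checked. All 32 symbols were found, each on a single row. Cofactors were grouped by domain or activity: 11 with a UBX domain, the UFD1L and NPLOC4 pair, 4 deubiquitylases and glycanases, 6 with an AN1 zinc finger, and 8 others. The libraries are from U2OS, a long-established human osteosarcoma cell line, in which polyadenylated RNA was sequenced. In the control group 3 samples received 0.05% DMSO, the solvent, and in the treated group 3 received 5 µM NMS-873 dissolved in DMSO, both for 4 h. NMS-873 is an allosteric inhibitor of the VCP ATPase. The labels name no genetic change in either group and do not say whether the samples of a group were separate cultures. The spread behind each p-value is therefore that of the libraries at hand and may be technical.

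VCP is a hexameric ATPase of the AAA family that threads ubiquitylated proteins through its central pore and so unfolds them or pulls them out of membranes, chromatin and complexes. It finds its substrates through cofactors. The UFD1L and NPLOC4 heterodimer brings ubiquitin chains to the pore, the UBX proteins dock on the N-terminal domain of VCP and direct it to particular membranes or ligases, and deubiquitylases and the glycanase NGLY1 trim what is being unfolded. In secretory cells and in tumour lines this system carries misfolded proteins from the endoplasmic reticulum (ER) to the proteasome.

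Each library held between 21132311 and 22488952 reads in genes. Values are normalised counts or FPKM. Normalised counts are reads divided by a size factor that equals the median ratio over the ERCC spike-in RNAs. FPKM is also divided by a length set for each gene. The lengths implied by the deposited values, such as 12188 bases for WAC, were not checked against the transcripts of these cells. Comparisons of FPKM between genes rest on those lengths. On this spike-in scale the median of all 14889 genes tested stood at a log2 fold change of -0.10. Scaling by median ratios over genes in place of spike-ins (called gene-based scaling below) put that median at 0.00. A member near -0.10 thus moved like the median gene. NMS-873 replicate 1 stood apart from the other treated libraries, and DMSO replicate 3, by less, from the other controls. A chi-square comparison of reads, divided by its degrees of freedom, gave 7.37 and 7.82 for the treated replicate 1 against replicates 2 and 3, and 1.79 for those against each other. For DMSO replicate 3 the values were 3.56 and 3.63, and 1.53 between the other controls. Of the osteosarcoma markers, SPARC, COL1A1, VIM and CDH2 were at 56.1 FPKM or more in every library and RUNX2 was low, at 0.607 to 1.33 FPKM. Of these 5 markers 3 fell with NMS-873: RUNX2, from 1.27 to 0.656 FPKM on average (log2 fold change -0.95), COL1A1 (-0.43) and VIM (-0.20); their part in the results below was not tested. The markers of other cell types EPCAM, CDH1 and PTPRC reached at most 1.61 FPKM and ALB was listed at 0. Genes of the ER stress response were far higher in the treated libraries: DDIT3, which encodes the stress factor CHOP, was at a log2 fold change of 5.11 and the ER chaperone gene HSPA5 at 2.76.

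Beside those genes, the VCP system itself changed by small amounts. Of the 32 genes, 31 reached the mean normalised count of 10 required for the test, and 11 of them rose and 5 fell with NMS-873 at an adjusted p under 0.05 (limma, Benjamini-Hochberg over all genes tested). Among all genes tested, 14.9% were called higher and 33.0% lower (47.9% in all), so higher calls took a larger share of the members (35.5%) and lower calls a smaller one (16.1%). The median log2 fold change of the members was 0.02, against -0.10 for all genes. ZFAND2A was the single one of the 31 tested members that changed more than 1.5-fold, and the median size of the 16 called changes was 0.24 on the log2 scale, against 0.35 for all called genes. All 3 treated libraries lay above all 3 controls for 11 members and below them for 5, where the shares over all genes tested were 16.4% and 37.2%.

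The split between rises and falls depended on the scale. With gene-based scaling 18 members were higher and 1 lower (58.1% and 3.23%, against 25.3% and 20.9% of all genes), with a median of 0.13. With TMM factors, another gene-based scale, 21 were higher and 1 lower, against 26.0% and 20.1% of all genes. All 11 rises were also called on both of these scales, and of the 5 falls SVIP alone was. Of all genes tested, 16.6% were called higher and 35.7% lower with equal library totals, 20.7% and 27.6% after quantile normalisation, and 12.1% and 24.9% without limma's variance trend. In the authors' deposited table, 11 members have an adjusted p under 0.05 and a positive fold change and 2, UBXN11 and SVIP, a negative one. By the authors' values 12.4% of all genes tested here were higher and 24.2% lower. The 5 falls became 2 when DMSO replicate 1 was left out and 2 when NMS-873 replicate 1 was, and 3 on leaving out the third control or the second treated library.

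**Figure D1:**
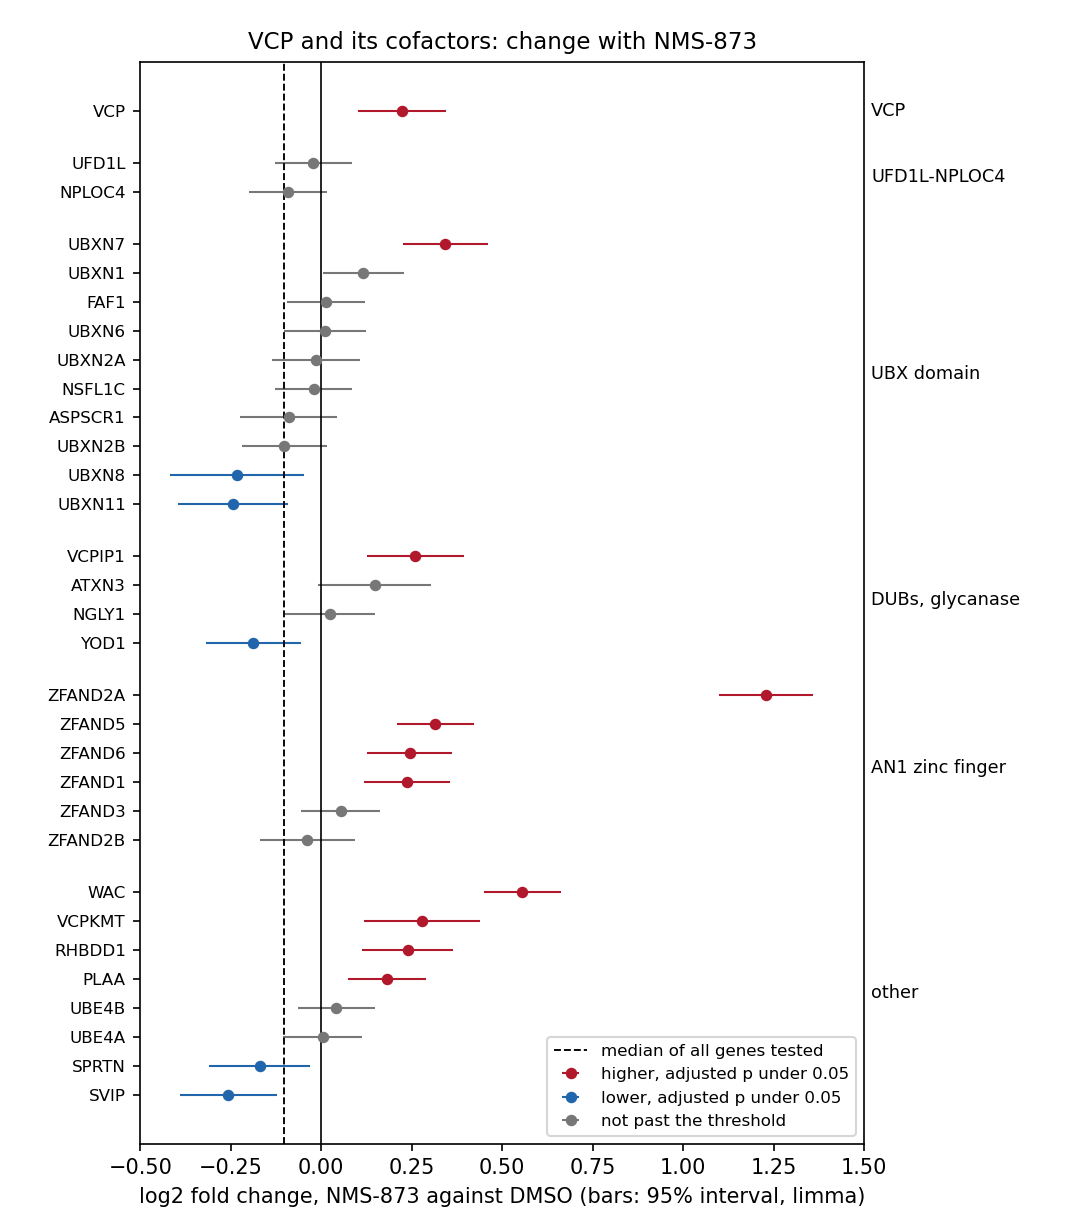
Log2 fold change (x axis) of the 31 tested members, grouped by class, with 95% intervals from limma; the dashed line is the median of all genes tested, -0.10. ZFAND2A at 1.23 and WAC at 0.56 stand to the right of all other members.

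VCP, the target of the compound, was slightly higher in the treated cells. VCP (ENSG00000165280.11; chromosome 9, 35056061 to 35073246, minus strand, hg19 as all gene positions below) was at 17975, 17461 and 18775 normalised counts in DMSO replicates 1 to 3 and 20901, 21148 and 21237 in NMS-873 replicates 1 to 3. The treated libraries lay close together and above every control. The difference was 1.17-fold (log2 fold change 0.22, SE 0.0617, adjusted p = 0.00122), and VCP was called higher under each of the 18 alternatives tried. Gene-based scaling gave a log2 fold change of 0.33. Because the compound acts on the protein, this transcript value checks no label.

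VCP was also by far the most abundant transcript of the system per length. It stood at 152 ± 5.57 FPKM with DMSO (SD, n = 3), above 98.6% of all tested genes, and the next member, NPLOC4, at 29.5 ± 1.39 FPKM. VCP amounted to 47.0%, 46.8% and 47.1% of the summed FPKM of its 31 cofactors in DMSO replicates 1 to 3, and to 51.6%, 50.3% and 49.4% in NMS-873 replicates 1 to 3. This share does not depend on the scaling between libraries. The treated libraries lay above all controls, by 3.48 percentage points (exact two-sided permutation test, p = 0.1, the smallest that 3 against 3 libraries allows). The summed cofactor level was 324 ± 10.9 FPKM with DMSO and 352 ± 10.5 with NMS-873.

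Since VCP and ER stress genes were higher together, the 250 bases upstream of RefSeq start sites (GRCh38.p14) were searched on both strands for the letters of 6 stress motifs, a search chosen after the results were known. RefSeq windows were matched for 26 of the 32 genes. The unfolded protein response element, searched as TGACGTGG, was found upstream of VCP and of no other matched member, and in 0.612% of all 35116 windows. It lies 189 to 182 bases before the VCP start site and overlaps a match to TGACNNNGC, the core of the antioxidant response element. The 30 bases around it, at chr9:35072796-35072825 (GRCh38.p14, minus strand), are shown with the element in capitals.
VCP: ttgcggccaatTGACGTGGcgttactaggc
The match is a description of the letters and no evidence of binding.

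UFD1L and NPLOC4, the heterodimer that hands ubiquitin chains to VCP, did not pass the test at an adjusted or unadjusted p under 0.05, with limma or with voom. UFD1L (ENSG00000070010.14; chromosome 22, 19437433 to 19466738, minus strand) was at 3962, 3980.2 and 4338 normalised counts in DMSO replicates 1 to 3 and 3953, 4063 and 4071 in NMS-873 replicates 1 to 3, and the groups overlapped. Its log2 fold change was -0.02 (95% interval -0.13 to 0.08, adjusted p = 0.762). NPLOC4 (ENSG00000182446.9; chromosome 17, 79523913 to 79615495, minus strand) was at 6070.5, 5935 and 6492 normalised counts in DMSO replicates 1 to 3 and 5612, 5808 and 5932 in NMS-873 replicates 1 to 3. Here all 3 treated libraries lay below the controls, by less than the test requires (log2 fold change -0.09, 95% interval -0.20 to 0.02, adjusted p = 0.157). The intervals leave room for a fall of NPLOC4 by 12.9% and for changes of UFD1L between -8.48% and 5.99%. NPLOC4 passed as lower with equal totals (adjusted p = 0.0299) and quantile normalisation (adjusted p = 0.00973). It did not pass with gene-based scaling (log2 fold change 0.01, adjusted p = 0.781) or TMM factors (0.02, adjusted p = 0.656). UFD1L passed as higher with TMM factors (log2 fold change 0.09, adjusted p = 0.0348).

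The UFD1L to NPLOC4 ratio of FPKM values, in which the scaling cancels, was 0.714, 0.734 and 0.731 in DMSO replicates 1 to 3 and 0.771, 0.766 and 0.751 in NMS-873 replicates 1 to 3. Every treated library was above every control, a difference of 0.07 on the log2 scale (exact two-sided permutation test, p = 0.1, Benjamini-Hochberg adjusted over 7 such pairs 0.233). A p of 0.1 is the smallest the design allows for any pair.

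The UBX proteins, the largest cofactor family, changed in small steps: 1 of the 10 that were tested rose and 2 fell. Both shares were smaller than those of all genes tested, 14.9% higher and 33.0% lower. The median of the UBX proteins stood at -0.02 on the log2 scale. With gene-based scaling limma called 4 of the 10 higher and 0 lower (1 lower at an unadjusted p under 0.05). On that scale 25.3% of all genes were higher and 20.9% lower. UBXN7, which links VCP to cullin-RING ubiquitin ligases, was the member that rose. UBXN7 (ENSG00000163960.7; chromosome 3, 196074533 to 196159345, minus strand) was at 943, 963 and 925 normalised counts in DMSO replicates 1 to 3 and 1089, 1273 and 1238 in NMS-873 replicates 1 to 3. NMS-873 replicate 1 was the lowest of the treated libraries and still above all controls. The rise was 1.27-fold (log2 fold change 0.34, SE 0.06, adjusted p = 2.29e-07).

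UBXN11, a UBX protein that binds Rnd GTPases, and UBXN8, which is anchored in the ER membrane and tethers VCP there, were the members that fell. UBXN11 (ENSG00000158062.16; chromosome 1, 26607819 to 26644854, minus strand) was at 414, 429 and 418 normalised counts in DMSO replicates 1 to 3 and 322, 356 and 389.9 in NMS-873 replicates 1 to 3. All treated libraries lay below the controls, replicate 1 furthest. The fall was 1.18-fold (log2 fold change -0.24, SE 0.077, adjusted p = 0.00528). UBXN8 was a gene of low level, at 239, 219.6 and 227 normalised counts in DMSO replicates 1 to 3 and 178, 207 and 199 in NMS-873 replicates 1 to 3. Its treated libraries also lay below all controls, 1.18-fold (log2 fold change -0.23, SE 0.0947, adjusted p = 0.0328).

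Neither fall was called with gene-based scaling, TMM factors or quantile normalisation. With the first of these, adjusted p was 0.0903 for UBXN11 (9.75e-04 to 0.108 over 18 alternatives) and 0.22 for UBXN8 (0.0239 to 0.293 over 18 alternatives). Without NMS-873 replicate 1, adjusted p was 0.0692 for UBXN11 and 0.163 for UBXN8. UBXN11 was also lost without the variance trend (0.0525), and UBXN8 without DMSO replicate 1 (0.132) or DMSO replicate 3 (0.0607). In the deposited gene positions UBXN11 overlaps 189 bases of SH3BGRL3, a gene on the opposite strand with 3817 mean normalised counts and a log2 fold change of -0.17. The library kit keeps strand, but no source used here states whether the counting did, and without it reads of the overlap cannot be told apart.

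The other UBX members did not pass. UBXN1, which binds ubiquitin chains and VCP, was at 1281, 1338 and 1384 normalised counts in DMSO replicates 1 to 3 and 1443, 1448 and 1447 in NMS-873 replicates 1 to 3, all treated libraries above the controls (log2 fold change 0.12, 95% interval 0.00 to 0.23, adjusted p = 0.0817). It was called higher with each of the 4 other scalings of the libraries, at adjusted p = 9.66e-05 with the gene-based one. UBXN2B, or p37, which maintains the ER and Golgi, was at 1128, 1149 and 1159 normalised counts in DMSO replicates 1 to 3 and 970.4, 1137 and 1098 in NMS-873 replicates 1 to 3, and the groups overlapped (log2 fold change -0.10, 95% interval -0.22 to 0.01, adjusted p = 0.145). NSFL1C, the p47 adaptor of Golgi membrane fusion, was at 2499, 2419 and 2659 normalised counts in DMSO replicates 1 to 3 and 2377, 2535 and 2552 in NMS-873 replicates 1 to 3. Its groups overlapped too (log2 fold change -0.02, 95% interval -0.13 to 0.09, adjusted p = 0.771), and TMM factors made it a rise (log2 fold change 0.09, adjusted p = 0.0368).

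UBXN2A, a close relative of UBXN2B, was at a log2 fold change of -0.02. UBXN6, which acts in endosomal and lysosomal sorting, was at 0.01, and FAF1, which binds the UFD1L-NPLOC4 form of VCP, at 0.01. UBXN6 and FAF1 were called higher with gene-based scaling (adjusted p = 0.0216 and 0.0155). ASPSCR1, or TUG, which can take VCP hexamers apart, was at -0.09. UBXN10, a cofactor linked to cilia, was at 1.03 normalised counts in DMSO replicate 1 and at 0 in the other libraries, and was not tested.

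Of the 4 deubiquitylases and glycanases, 1 rose, 1 fell and 2 did not pass, shares of 25.0% higher and 25.0% lower against 14.9% and 33.0% of all genes. VCPIP1, a deubiquitylase needed to rebuild the Golgi after mitosis, rose, and YOD1, a deubiquitylase of ER-associated degradation, fell. VCPIP1 was at 564, 511 and 526 normalised counts in DMSO replicates 1 to 3 and 606, 664 and 646 in NMS-873 replicates 1 to 3. The groups did not overlap, and the rise was 1.2-fold (log2 fold change 0.26, SE 0.0681, adjusted p = 6.41e-04). YOD1 (ENSG00000180667.6; chromosome 1, 207217194 to 207226325, minus strand) was at 754, 666 and 669.8 normalised counts in DMSO replicates 1 to 3 and 632, 590.2 and 610.2 in NMS-873 replicates 1 to 3. Its treated libraries lay below all controls, the highest control being replicate 1 (1.14-fold lower, log2 fold change -0.19, SE 0.0663, adjusted p = 0.0133).

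The fall of YOD1 was not called with gene-based scaling (adjusted p = 0.256; 0.00639 to 0.301 over 18 alternatives), TMM factors (0.301), quantile normalisation (0.0533) or log2(FPKM + 0.1) (0.0522). Nor was it called without the variance trend (0.0737), without DMSO replicate 1 (0.186) or without NMS-873 replicate 2 (0.0781). YOD1 shares 3525 bases with PFKFB2 on the opposite strand, which had 579.9 mean normalised counts against 654 for YOD1 and was at a log2 fold change of 0.23. ATXN3, the polyglutamine deubiquitylase that edits chains on VCP substrates, was at 332, 318 and 375 normalised counts in DMSO replicates 1 to 3 and 369, 371 and 393 in NMS-873 replicates 1 to 3. DMSO replicate 3 lay within the treated range, and ATXN3 did not pass (log2 fold change 0.15, 95% interval -0.01 to 0.30, adjusted p = 0.112). It did with gene-based scaling (adjusted p = 0.00317), TMM factors (0.00269), quantile normalisation (0.00547) and without DMSO replicate 3 (adjusted p = 0.0347). NGLY1, the glycanase that strips N-glycans from proteins leaving the ER, was at 872, 752 and 898 normalised counts in DMSO replicates 1 to 3 and 830.0, 903 and 824 in NMS-873 replicates 1 to 3. Its groups overlapped (log2 fold change 0.02, 95% interval -0.10 to 0.15, adjusted p = 0.785), and TMM factors made it a rise (log2 fold change 0.13, adjusted p = 0.0482).

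Among the AN1 zinc finger proteins, some of which bring VCP and the proteasome to damaged proteins, 4 of 6 rose (66.7%, against 14.9% of all genes). The 2 others, ZFAND3 and ZFAND2B, did not pass. The median change of the class was 0.24 on the log2 scale. With gene-based scaling 5 were higher (83.3%, against 25.3% of all genes). ZFAND2A, also called AIRAP, an arsenite-inducible protein that binds the proteasome, was the most changed of all 32 genes. ZFAND2A (ENSG00000178381.7; chromosome 7, 1191707 to 1200395, minus strand) was at 429, 429 and 413 normalised counts in DMSO replicates 1 to 3 and 1011, 1026 and 948 in NMS-873 replicates 1 to 3. Each group was tight and the treated libraries stood far above the controls. The rise was 2.35-fold (log2 fold change 1.23, SE 0.0661, adjusted p = 2.19e-47), and the call was kept under each of the 18 alternatives. A noncoding gene on the opposite strand, AC091729.9, overlaps 386 bases of it and fell, at a log2 fold change of -0.49.

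ZFAND2B, or AIRAPL, the nearest relative of ZFAND2A, is constitutive and guards protein entry into the ER. It was at 646, 629 and 638 normalised counts in DMSO replicates 1 to 3 and 613, 611 and 640.2 in NMS-873 replicates 1 to 3, and the groups overlapped (log2 fold change -0.04, 95% interval -0.17 to 0.09, adjusted p = 0.659). With DMSO the pair stood at nearly equal levels, and with NMS-873 they did not: the ratio of ZFAND2A to ZFAND2B FPKM was 0.989, 1.01 and 0.963 in DMSO replicates 1 to 3 and 2.46, 2.50 and 2.21 in NMS-873 replicates 1 to 3. The difference was 1.27 on the log2 scale (exact two-sided permutation test, p = 0.1, adjusted over 7 pairs 0.233).

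Because ZFAND2A carried the largest change, the 250 bases before its RefSeq start site, chr7:1160197-1160446 (GRCh38.p14, minus strand), are shown, with 2 matches in capitals. The first is to the antioxidant response element core TGACNNNGC and the second to TTCNNGAA, a pair of heat shock units.
ZFAND2A: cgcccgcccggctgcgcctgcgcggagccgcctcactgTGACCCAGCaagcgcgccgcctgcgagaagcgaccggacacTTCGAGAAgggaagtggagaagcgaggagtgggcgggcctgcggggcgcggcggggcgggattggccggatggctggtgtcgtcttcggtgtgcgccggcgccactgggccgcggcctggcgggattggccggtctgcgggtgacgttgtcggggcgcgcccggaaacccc
That core is common, in 10.9% of all windows of this length, and was also found before VCP, YOD1, ZFAND5 and ZFAND6. Heat shock units were searched in both arrangements of a pair. GAANNTTC was found before FAF1 alone among matched members (5.78% of all windows). TTCNNGAA was found before ZFAND2A, WAC, UBXN6, UBXN11, YOD1 and SPRTN (6.62% of all windows), of which ZFAND2A and WAC were called higher, UBXN11, YOD1 and SPRTN lower, and UBXN6 did not pass. The C/EBP-ATF response element TTGCATCA (0.772%) and the ER stress response element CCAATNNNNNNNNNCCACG (0.074%) had no match in the windows of matched members. No match means only that these letters are not in these 250 bases.

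The other AN1 members moved less. ZFAND5 (ENSG00000107372.8; chromosome 9, 74966341 to 74980163, minus strand), which stimulates the proteasome in wasting muscle, was at 2513, 2544 and 2746 normalised counts in DMSO replicates 1 to 3 and 3139.7, 3239 and 3324 in NMS-873 replicates 1 to 3. The groups did not overlap, and it rose 1.24-fold (log2 fold change 0.31, SE 0.054, adjusted p = 1.31e-07). ZFAND6 (ENSG00000086666.14; chromosome 15, 80351910 to 80430735, plus strand), a relative of ZFAND5 with the same pair of zinc finger types, was at 991, 948 and 1096 normalised counts in DMSO replicates 1 to 3 and 1095, 1214 and 1288 in NMS-873 replicates 1 to 3. DMSO replicate 3 and NMS-873 replicate 1 met at the same level, so the groups touched (1.18-fold higher, log2 fold change 0.24, SE 0.0601, adjusted p = 2.73e-04). Without limma's variance trend ZFAND6 was not called (adjusted p = 0.0672; 1.44e-06 to 0.0672 over 18 alternatives). ZFAND1, which takes VCP and the proteasome to arsenite-induced stress granules, rose 1.18-fold, from 906 ± 14.9 to 1068 ± 35.8 normalised counts (SD, n = 3). ZFAND1 overlaps 470 bases of CHMP4C on the opposite strand. CHMP4C had 266 mean normalised counts against 987 for ZFAND1 and also rose, at a log2 fold change of 0.36. ZFAND3 was at 1904, 1954 and 2032 normalised counts in DMSO replicates 1 to 3 and 1931, 2059 and 2123 in NMS-873 replicates 1 to 3, with overlapping groups (log2 fold change 0.05, 95% interval -0.06 to 0.16, adjusted p = 0.441), and was called higher with gene-based scaling (adjusted p = 0.00105).

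**Figure D2:**
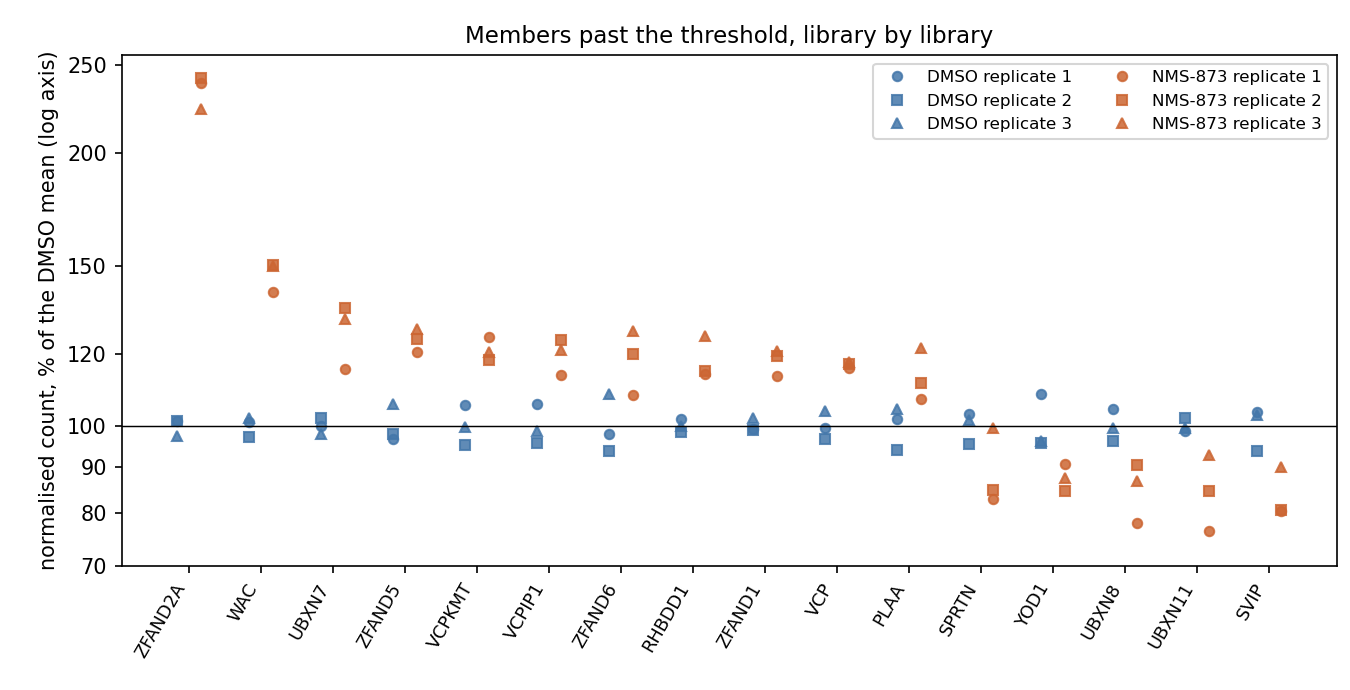
Normalised count of the 16 called members in each library, as a percent of the gene's DMSO mean on a log axis; colours mark treatment and symbols the replicate. The groups do not overlap for ZFAND2A and WAC, and they do for ZFAND6 and SPRTN.

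Of the 8 other cofactors 4 rose and 2 fell, where 14.9% of all genes tested were higher and 33.0% lower. Rises thus took a larger share of these cofactors than of all genes, and falls a smaller one. With gene-based scaling 6 of the 8 were higher and 1 lower, against 25.3% and 20.9% of all genes. WAC, an adaptor that activates VCPIP1 at the Golgi and also works with the RNF20-RNF40 ligase at chromatin, changed most. WAC (ENSG00000095787.17; chromosome 10, 28821422 to 28912041, plus strand) was at 3122, 3007 and 3153 normalised counts in DMSO replicates 1 to 3 and 4347, 4658 and 4647 in NMS-873 replicates 1 to 3. The treated libraries lay well above the controls, at 1.47-fold (log2 fold change 0.56, SE 0.0537, adjusted p = 8.58e-20). RHBDD1 (ENSG00000144468.12; chromosome 2, 227700297 to 227863931, plus strand), a rhomboid protease of the ER membrane that cuts proteins for extraction by VCP, was at 699, 676 and 687 normalised counts in DMSO replicates 1 to 3 and 784, 789.9 and 863 in NMS-873 replicates 1 to 3. It rose 1.18-fold (log2 fold change 0.24, SE 0.064, adjusted p = 8.44e-04), with no overlap. SVIP (ENSG00000198168.4; chromosome 11, 22835345 to 22851845, minus strand), a small protein that inhibits ER-associated degradation by occupying VCP, was at 668, 606 and 664 normalised counts in DMSO replicates 1 to 3 and 519, 521 and 581 in NMS-873 replicates 1 to 3. All treated libraries lay below the controls, 1.2-fold (log2 fold change -0.26, SE 0.0681, adjusted p = 7.24e-04), and SVIP was the 1 fall among the members that was also called under each of the 18 alternatives, at -0.15 with gene-based scaling.

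VCPKMT, the methyltransferase that trimethylates a lysine of VCP, rose 1.21-fold, from 289 ± 14.8 to 351 ± 10.3 normalised counts (SD, n = 3, as below). PLAA, a ubiquitin-binding partner of VCP in lysosome repair, rose 1.13-fold, from 2421 ± 129 to 2746 ± 184. PLAA was not called without DMSO replicate 2 (adjusted p = 0.0587), without NMS-873 replicate 3 (0.0744) or without the variance trend (0.0956; 7.55e-07 to 0.0956 over 18 alternatives). SPRTN, the protease of DNA-protein crosslink repair, was 1.13-fold lower, from 537 ± 21.3 to 478 ± 48.5 normalised counts. Its groups overlapped through NMS-873 replicate 3, and the call (adjusted p = 0.0387; 0.00436 to 0.446 over 18 alternatives) was lost with gene-based scaling, TMM factors, quantile normalisation, log2(FPKM + 0.1), no count minimum and no variance trend. It was also lost without DMSO replicate 1 (0.149), DMSO replicate 3 (0.0887), NMS-873 replicate 1 (0.177) or NMS-873 replicate 2 (0.172). SPRTN overlaps 749 bases of EXOC8 on the opposite strand. EXOC8 had 465 mean normalised counts against 507 for SPRTN and did not pass, at a log2 fold change of 0.11.

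The ubiquitin chain elongation factors UBE4A and UBE4B did not pass. UBE4A was at 1597, 1592 and 1653 normalised counts in DMSO replicates 1 to 3 and 1622, 1603 and 1628 in NMS-873 replicates 1 to 3 (log2 fold change 0.00, 95% interval -0.11 to 0.11, adjusted p = 0.965). UBE4B was at 2366, 2288 and 2321 normalised counts in DMSO replicates 1 to 3 and 2303, 2404 and 2474 in NMS-873 replicates 1 to 3 (log2 fold change 0.04, 95% interval -0.07 to 0.15, adjusted p = 0.552). Both pairs of groups overlapped, and both genes were called higher with gene-based scaling (adjusted p = 0.0239 and 0.00131).

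In FPKM, and so with the gene lengths used there, the cofactors spanned a wide range under DMSO. Of the 32 genes, 13 stood at 10 FPKM or more and 11 under 5, and the median member was at 8.87 FPKM, against 4.47 for all genes tested. After VCP and NPLOC4 came UBXN1 (24.3 ± 0.94 FPKM), PLAA (23.0 ± 1.23), ZFAND3 (22.3 ± 0.736), FAF1 (21.8 ± 1.72) and UFD1L (21.4 ± 1.11), and neighbours in this run of 5 overlapped. NSFL1C (17.5 ± 0.847) and ZFAND5 (16.8 ± 0.817) followed, overlapping each other. The deubiquitylases and the glycanase were low, from YOD1 (4.89 ± 0.349) and NGLY1 (4.62 ± 0.428) to VCPIP1 (2.45 ± 0.125) and ATXN3 (1.85 ± 0.162). Of the 31 pairs of neighbours in the DMSO order, 11 had control libraries that did not overlap. With NMS-873 ZFAND2A went from rank 18 to rank 9, and 16 genes held their rank.

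**Figure D3:**
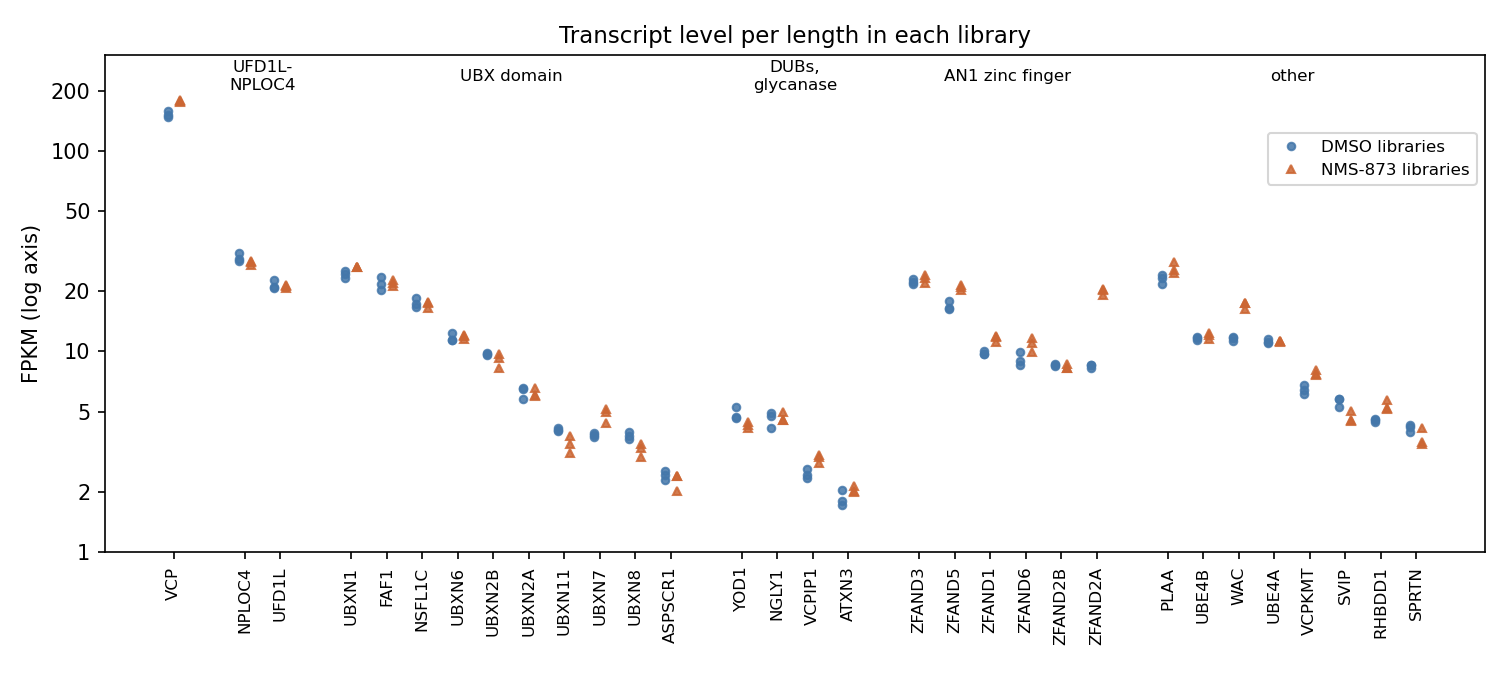
FPKM (log axis) of 31 members in each of the 6 libraries, ordered by DMSO level within a class; UBXN10, listed at 0 in 5 libraries, is not drawn. VCP stands above every cofactor, and ZFAND2A moves from rank 18 to rank 9.

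Of the 7 pairs whose within-library ratio was compared, 3 had groups that did not overlap: ZFAND2A to ZFAND2B, UFD1L to NPLOC4, and ATXN3 to YOD1. The ATXN3 to YOD1 ratio was 0.339, 0.367 and 0.431 in DMSO replicates 1 to 3 and 0.45, 0.484 and 0.496 in NMS-873 replicates 1 to 3, higher with NMS-873 by 0.34 on the log2 scale (exact two-sided permutation test, p = 0.1, adjusted 0.233). None of the 7 could pass 0.05 in this design. For the paralogues UBXN2A and UBXN2B the difference was 0.09, for ZFAND5 and ZFAND6 0.07, for UBE4A and UBE4B -0.04 and for NSFL1C and UBXN2B 0.08, each with overlapping groups.

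**Figure D4:**
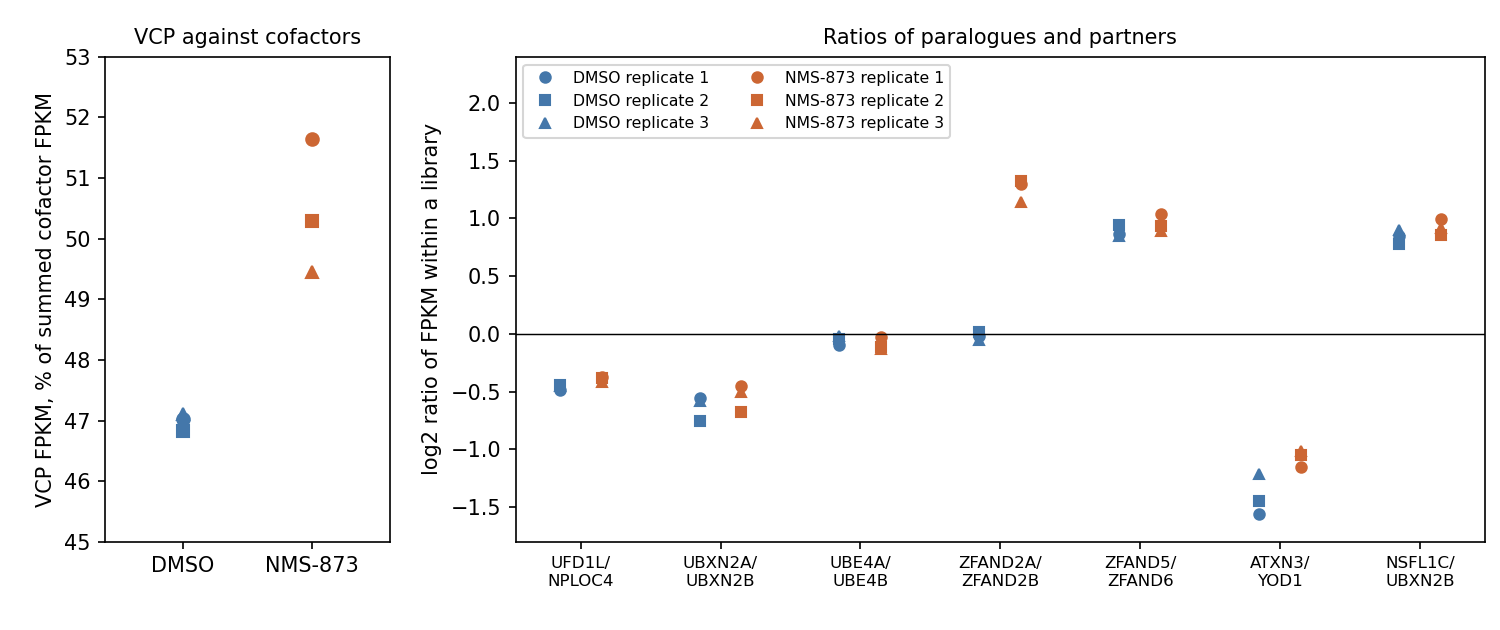
Left, VCP FPKM as a percent of the summed FPKM of its 31 cofactors in each library (the axis does not start at 0); right, the log2 ratio of FPKM for 7 pairs of members, by library. The ZFAND2A to ZFAND2B ratio separates the treatments most, and 4 of the 7 pairs overlap.

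Other genes of the VCP pathway were set beside the members, in lists also chosen with earlier results of these data known. Of 7 tested proteins that recruit VCP to membranes or act with it there, 6 rose, and FAF2 did not pass (median log2 fold change 0.63, and 85.7% higher against 14.9% of all genes). SYVN1, the ER ubiquitin ligase HRD1, was at 1.96, VIMP, an ER anchor of VCP, at 1.04 and DERL2, a retrotranslocation factor, at 1.03. DERL3 was listed at 0 in every library. Of 6 ubiquitin shuttle factors, which carry unfolded proteins to the proteasome, 1 rose and 1 fell (median -0.05, and 16.7% in each direction): UBQLN1 was at 0.16 and DDI2 at -0.58. Of 6 ATPases related to VCP 2 fell, SPATA5L1 at -0.36 and NSF, the vesicle fusion ATPase, at -0.24, a share of 33.3% beside 33.0% of all genes tested. With gene-based scaling 2 of these 6 were also higher (33.3%, against 25.3% of all genes).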

How the data were processed

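Poly(A) RNA-seq from 6 U2OS libraries, 3 per treatment by title, was analysed from 1 deposited table. Per the labels' protocols, a stranded kit and single reads on 1 flow cell were used. The submitters' processing notes name hg19, featureCounts (version 1.5.1) and DESeq2 (version 1.16.1). The deposited sample columns hold FPKM, judged from their values; the table also gives the deposited mean normalised count (a signal in scaled reads) and the authors' log2 fold change and adjusted p-value. Normalised counts were rebuilt as FPKM times mean normalised count over mean FPKM. Multiplied by the implied size factors, 100% of values came within 0.001 of a whole number, and the factors equal median ratios over the 92 spike-in rows.

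Genes whose mean normalised count reached 10, 14889 of 57820, entered a limma fit (version 3.58.1 under R 4.3.3). It compared the treatments on log2(normalised count + 1) with limma's mean-variance trend, two-sided, with Benjamini-Hochberg adjustment over those genes. Fold changes are on that scale, which understates low genes. The design had assumed normalised counts as deposited; the unit proved to be FPKM, and the test was kept. The prior variance had 250.84 degrees of freedom, so spread was borrowed mostly from genes of similar level. Ratios used exact permutation tests. Values in every library were given for VCP, UFD1L, NPLOC4 and NSFL1C, for up to 3 members per class with the lowest adjusted p past 0.05, and for up to 2 per class with the largest change not past it. In simulated data with 50 genes changed at each size, the fit recovered 50% of 1.2-fold, 72% of 1.5-fold and 92% of 2-fold changes. It called 2 of 14689 unchanged genes. The simulated spread was a chosen value, not estimated from these libraries, and a smaller share of genes changed than was called here. Members and lists were chosen with earlier results of these data known. PECAM1, a marker, was not analysed here, and some genes of the pathway lists are not reported here. Alternatives were 4 other scalings, other pseudocounts and count minimums, no trend, voom, log2(FPKM + 0.1), the replicate block and each library left out.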

Additional observations from a re-analysis of the deposited data

How the results depend on the processing

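Of the 16 member calls, 10 (9 higher and SVIP lower) were made under all 18 alternatives. The number called higher was 18 with gene-based factors and 21 with TMM factors, against 11. The number called lower, 5, was 1 with gene-based factors, 1 with TMM factors, 2 after quantile normalisation, 2 without the variance trend and 3 on log2(FPKM + 0.1); leaving out 1 library gave 2 to 5. UFD1L and NSFL1C turned from -0.022 and -0.021 to 0.089 and 0.089 with TMM factors. The class medians with gene-based and TMM factors were 0.047 and 0.054 for UFD1L-NPLOC4, 0.086 and 0.092 for UBX proteins, 0.19 and 0.20 for deubiquitylases and glycanase (0.15 after quantile normalisation), 0.34 and 0.35 for AN1 proteins and 0.22 and 0.22 for the others. Leaving out 1 library moved the UBX median between -0.052 and 0.017 and that of deubiquitylases and glycanase between 0.021 and 0.14. The cause of these shifts was not tested. A change of scaling factors moves all genes by nearly the same amount, which was upward here with gene-based and TMM factors. Pseudocounts of 0.5 and 5, a count minimum of 50 and voom changed no member call; without a count minimum SPRTN was lost. With the replicate number as a block, 11 members were higher and 5 lower, no member call changed and VCP was at 0.22. Deviations from the group mean correlated at 0.0394, -0.0253 and 0.0425 between same-numbered libraries. Between libraries of other numbers they correlated at -0.0716 to 0.0350. With 3 libraries per group these values cannot tell whether same-numbered libraries were handled together. With normalised counts in place of FPKM the VCP share was higher with NMS-873 by 3.61 percentage points, against 3.48 with FPKM. In the 7 ratios the scaling between libraries cancels, so other factors could not move them. Leaving out 1 of 3 libraries cannot move a group difference by 1 SD of the same values, so that step was no check. At this depth the 95% intervals of tested members reached 0.11 to 0.19 to either side on the log2 scale.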
